A study of Mus musculus with 9 samples.

Results

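The 37 genes of the mouse mitochondrial genome were followed in 9 RNA-seq libraries of adult neural stem cells (NSCs). They were every row of the deposited table whose Ensembl identifier carries a mouse symbol that starts with mt-, and they made up 37 of 55704 rows. They comprised 13 protein-coding genes, 2 rRNA genes and 22 tRNA genes. The choice used names alone and no measured value. The NSCs came from the subventricular zone of C57BL/6 mice aged 8 to 9 weeks, with 2 female and 2 male mice pooled in each isolation, and were passaged at least 3 times before they were plated on poly-L-ornithine and laminin. The bFGF/EGF-treated NSCs (3 libraries, day 0) were kept proliferating in 20 ng/mL bFGF and 20 ng/mL EGF. The bFGF/BMP4-treated NSCs (3 libraries, day 6) received 20 ng/mL bFGF and 20 ng/mL BMP4 in place of EGF. The BMP4-treated NSCs (3 libraries, day 6) received 20 ng/mL BMP4 with neither bFGF nor EGF. The control medium held B27 without vitamin A, and the media of both day 6 groups are given with B27 only. The study used the last 2 groups as models of quiescence and the first as the activated control. Since the control was collected at day 0, its differences from both other groups also hold the days in culture and the change of supplement, and these cannot be told apart from the growth factors. The labels do not say whether the 3 libraries of a group came from separate isolations, so p-values measure the spread between these libraries, which may be technical.

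The mitochondrial genome is a small circle that is copied into long RNAs from both of its strands. In the cells these RNAs are cut at the tRNA genes that lie between most of the other genes, which frees the mRNAs, the rRNAs and the tRNAs. The mRNAs encode core subunits of respiratory complexes I, III, IV and V, while all other subunits, and all proteins that copy, cut and translate this genome, come from nuclear genes. Neural stem cells are known to change their use of mitochondria as they leave or enter the cell cycle.

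Of the 37 genes, 12 mRNAs, both rRNAs and 14 tRNAs lie on the heavy-strand transcript, which reads along the plus strand of the reference. The mRNA mt-Nd6 and 8 tRNAs lie on the light-strand transcript, which reads along the minus strand. The 5 light-strand tRNAs with signal in all groups carry results described further on, and they are shown here 5′ to 3′ in the RNA's own direction from the GRCm39 genome, with the anticodon in capitals. The glutamate tRNA mt-Te lies at chrM:14071-14139, directly beside mt-Nd6, the proline tRNA mt-Tp at chrM:15356-15422, the asparagine tRNA mt-Tn at chrM:5089-5159, the cysteine tRNA mt-Tc at chrM:5192-5257 and the tyrosine tRNA mt-Ty at chrM:5260-5326, all on the minus strand. The methionine tRNA mt-Tm (chrM:3845-3913, plus strand), which starts translation in mitochondria, is shown as a heavy-strand tRNA with 0 fragments in the control libraries and some in all day 6 libraries.
mt-Te: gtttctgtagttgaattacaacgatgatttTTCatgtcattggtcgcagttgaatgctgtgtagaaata
mt-Tp: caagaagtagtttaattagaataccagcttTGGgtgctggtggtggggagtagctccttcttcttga
mt-Tn: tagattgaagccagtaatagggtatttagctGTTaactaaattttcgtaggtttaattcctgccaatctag
mt-Tc: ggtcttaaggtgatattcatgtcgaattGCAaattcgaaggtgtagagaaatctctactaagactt
mt-Ty: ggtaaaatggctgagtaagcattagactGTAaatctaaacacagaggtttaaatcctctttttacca
mt-Tm: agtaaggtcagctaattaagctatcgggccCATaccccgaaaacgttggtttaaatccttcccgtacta

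Part of the mitochondrial genome also has a near-identical copy in the nuclear genome, which bears on how its reads can be placed. In GRCm39, the 4654 aligned bases of chr1:24650616-24655269 matched chrM:6390-11042 at 99.936% identity, with 2 mismatches and 1 gap. The copy held the whole of mt-Co2, mt-Atp8, mt-Atp6, mt-Co3, mt-Nd3 and mt-Nd4l, 63.6% of mt-Nd4 and 31.3% of mt-Co1. None of mt-Nd1, mt-Nd2, mt-Nd5, mt-Nd6, mt-Cytb, mt-Rnr1 and mt-Rnr2 lay in it. All 3 differences between chrM and chr1 are shown on the plus strand of chrM, with the base that differs in capitals, because within the copy only a fragment that crosses one of them, or that reaches past an end of the copy, can be assigned by its sequence. Such assignment presumes that the DNA of these mice matches GRCm39 at these positions, which was not tested. Positions are counted from 1 at the start of chrM, the mitochondrial base comes first, and the substitutions were A6393T in mt-Co1, which lay 3 bases inside the end of the copy, and T9461C in mt-Nd3. The third was an extra A in the chr1 copy within a run of A in the tRNA gene mt-Tr.
chrM:6373-6413: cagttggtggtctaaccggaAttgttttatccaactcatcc
chr1:24655246-24655286: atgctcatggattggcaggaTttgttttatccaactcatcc
chrM:9441-9481: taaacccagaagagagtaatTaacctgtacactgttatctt
chr1:24652178-24652218: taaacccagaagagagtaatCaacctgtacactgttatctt
chrM:9809-9848: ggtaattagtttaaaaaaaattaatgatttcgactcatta
chr1:24651810-24651850: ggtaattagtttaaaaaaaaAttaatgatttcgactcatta

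Levels are given in FPKM, the fragments of a gene scaled by its length and by the size of the library, so they can be compared between genes as well as between libraries. Each library held between 15902826 and 17438624 fragments on genes. Where no library of a group had over 3 fragments, the gene counts here as not detected in that group, a limit that covers counting error only. Comparisons used limma on log2(FPKM + 0.1), and a gene was said to differ where its p-value, adjusted over 20207 genes, did not exceed 0.05. The labelled cell type was checked against its markers, given with the control first, bFGF/BMP4 second and BMP4 alone last. The NSC gene Sox2 stood at 167 ± 36.2, 137 ± 11.7 and 137 ± 13.4 FPKM (SD, n = 3 each). Nes (nestin) stood at 151 ± 6.38, 3.55 ± 0.523 and 15.8 ± 5.04 FPKM. The other NSC markers listed were mixed. Pax6 (1.53, 4.8 and 7.16 FPKM) and Slc1a3 (73.6, 130 and 113 FPKM) were higher at day 6. Fabp7 was highest in the control (655, 272 and 484 FPKM), and Vim was lowest in bFGF/BMP4-treated NSCs (677, 167 and 892 FPKM). The astrocyte filament gene Gfap stood at 0.0926 ± 0.0379, 19.4 ± 2.4 and 2566 ± 435 FPKM across these groups, and the sum of 5 astrocyte markers ran from 127 to 173, from 471 to 504 and from 3151 to 4028 FPKM. The sum of 4 ependymal markers, mainly Foxj1, ran from 7.65 to 12.1, from 9.94 to 10.9 and from 56.1 to 67 FPKM. These markers moved with the groups, and their part in the mitochondrial results was not tested. Of 7 microglial markers, Itgam was at 0 and Aif1 and Csf1r had at most 3 fragments in every library. The sum of the list was at most 1.75 FPKM. Within it Tmem119 rose (0, 0.257 and 1.34 FPKM), while P2ry12 was highest in the control (0.561, 0.153 and 0.225 FPKM). The vascular marker Cldn5 and the ependymal marker Tmem212 had at most 3 fragments in every library as well. The sum of the 5 vascular markers nevertheless rose at a low level. It ran from 0.15 to 0.276, from 1.66 to 2.53 and from 3.75 to 5.41 FPKM. Its largest part was Kdr, at 0.152, 1.18 and 3.31 FPKM. In bulk RNA, fewer cells of a type and less RNA per cell cannot be told apart.

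The mitochondrial mRNAs took a larger share of the fragments in both BMP4-containing groups. The 13 mRNAs together held 2, 1.53 and 2.4% of all fragments on genes in bFGF/EGF replicates 1, 2 and 3. In the bFGF/BMP4 libraries they held 3.17, 3.6 and 3.02%, and in the BMP4 libraries 3.3, 3.68 and 3.22%. Both day 6 groups thus lay above every bFGF/EGF library and overlapped each other, with means of 1.98 ± 0.44%, 3.26 ± 0.3% and 3.4 ± 0.25% (SD, n = 3 each). The share was computed as a description, with no test. The 2 rRNAs held only 0.0409 ± 0.012%, 0.0381 ± 0.0021% and 0.0358 ± 0.0044% of fragments in the 3 groups. The 22 tRNAs held 0.00425 ± 0.0007%, 0.00729 ± 0.00061% and 0.00937 ± 0.00015%. Whether poly(A) RNA was selected or rRNA removed before sequencing is not given in the sources used here, so the levels of rRNA and tRNA cannot be read against those of mRNA as amounts in the cell. The nuclear-retained long RNA Malat1 also stood higher at day 6, at 105 ± 45.4, 289 ± 71.5 and 338 ± 97.6 FPKM, and the part of such differences between libraries in the mitochondrial share was not tested.

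Per length, mt-Co1 was the most abundant of the 37 genes in every group, and the levels of the 13 mRNAs ran from 1.66 to 9808 FPKM over the 9 libraries. In the BMP4-treated NSCs the order was mt-Co1 (9182 ± 576 FPKM), mt-Cytb (5922 ± 868), mt-Nd1 (3807 ± 783), mt-Nd2 (2503 ± 408), mt-Nd4 (2262 ± 328), mt-Nd5 (2145 ± 232) and mt-Nd6 (2113 ± 523), of which mt-Nd2 to mt-Nd6 lay within each other's spread. The other 6 mRNAs, all of them wholly inside the chr1 copy, had group means of 2.51 to 166 FPKM. In the plot of levels along the genome these 6 lay far under their neighbours in all libraries. Within the groups, mt-Co1 alone supplied 44.4 ± 2.4%, 40.5 ± 2.5% and 39.9 ± 2% of the mRNA fragments.

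**Figure D1:**
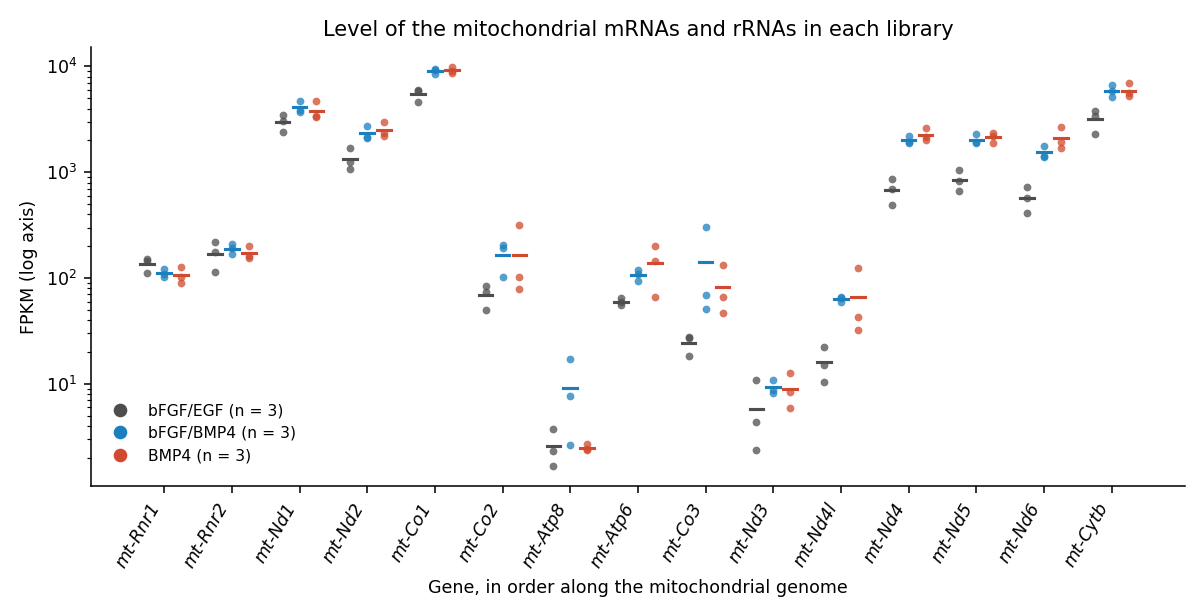
Level in FPKM (log axis) of the 2 rRNAs and 13 mRNAs in each of the 9 libraries, with the genes in their order along the mitochondrial genome; points are libraries, bars are group means, and the groups are bFGF/EGF, bFGF/BMP4 and BMP4 with 3 libraries each. The day 6 libraries lie above the bFGF/EGF libraries for most mRNAs and overlap them for both rRNAs, and the 6 mRNAs from mt-Co2 to mt-Nd4l lie at 315 FPKM or lower.

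To ask how the mitochondrial mRNAs differed at day 6, each day 6 group was compared with the bFGF/EGF-treated NSCs. Neither comparison isolates BMP4, since EGF was also withdrawn in both groups, and bFGF as well in the BMP4-treated NSCs. In bFGF/BMP4-treated NSCs, 8 of the 13 mRNAs were higher (mt-Nd2, mt-Atp8, mt-Co3, mt-Nd4l, mt-Nd4, mt-Nd5, mt-Nd6 and mt-Cytb) and 0 were lower, beside 25% of all genes tested higher, 23.6% lower and 48.6% differing in either direction. In BMP4-treated NSCs, 8 of 13 were higher (mt-Nd2, mt-Atp6, mt-Co3, mt-Nd4l, mt-Nd4, mt-Nd5, mt-Nd6 and mt-Cytb) and 0 were lower, beside 29.6% of all genes higher, 25.3% lower and 54.9% differing. With a fold change of at least 2 as well, 6 were higher in each comparison, beside 16.5% and 21.3% of all genes. The median log2 fold change over the 13 mRNAs was 1.23 and 1.01, and over all genes tested it was 0.063 and 0.1. All fitted log2 fold changes of the 13 were above 0, from 0.47 to 2.1 and from 0.04 to 1.9, with 2 exceptions among the alternatives, both in BMP4- over bFGF/EGF-treated NSCs. mt-Atp8 turned to -0.04 on the TPM scale, to -0.22 without bFGF/EGF replicate 3 and to -0.02 without BMP4 replicate 1, and mt-Nd3 turned to -0.03 with its nuclear copy added. Both comparisons use the same control libraries and so are not independent. Of the mRNAs, 4 (mt-Nd4l, mt-Nd4, mt-Nd5 and mt-Nd6) were higher in both comparisons under all 20 alternative settings. That count is only a description, as the share of all genes that held in this way was not computed.

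The largest rises among the abundant mRNAs were seen in subunits of complex I, the NADH dehydrogenase that feeds electrons into the respiratory chain. mt-Nd4 (ENSMUSG00000064363, chrM:10167-11544) stood at 697, 491 and 857 FPKM in bFGF/EGF, 1927, 2204 and 1873 in bFGF/BMP4, and 2156, 2630 and 2001 in BMP4 replicates 1 to 3. Its day 6 libraries did not overlap the control, with a log2 fold change of 1.59 ± 0.26 (SE; adjusted p = 0.00062) in bFGF/BMP4- and 1.76 ± 0.26 (adjusted p = 0.00025) in BMP4-treated NSCs. mt-Nd5 (ENSMUSG00000064367, chrM:11742-13565), which lies wholly outside the chr1 copy, stood at 825, 667 and 1062 FPKM in bFGF/EGF, 1888, 2285 and 1925 in bFGF/BMP4, and 2359, 1899 and 2178 in BMP4. Again both day 6 groups lay above the control, by 2.42-fold (log2 1.28 ± 0.24, adjusted p = 0.0017) and 2.56-fold (log2 1.35 ± 0.24, adjusted p = 0.00098). mt-Nd6 (ENSMUSG00000064368, chrM:13552-14070), the only mRNA of the light-strand transcript, stood at 574, 412 and 726 FPKM in bFGF/EGF, 1406, 1790 and 1418 in bFGF/BMP4, and 1943, 2700 and 1697 in BMP4. It was higher by 2.75-fold (log2 1.46 ± 0.28, adjusted p = 0.0016) and 3.73-fold (log2 1.9 ± 0.28, adjusted p = 0.00024). mt-Nd5 and mt-Nd6 overlap by 14 bases on opposite strands, and whether the fragments were counted by strand is not given, so reads in that stretch cannot be told apart. If they were not counted by strand, fragments anywhere in mt-Nd6 may also come from the heavy-strand transcript. The rise at mt-Nd6 therefore cannot be assigned to 1 of the 2 strands.

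The complex I genes nearest to the start of the heavy-strand mRNAs moved less. mt-Nd2 (chrM:3914-4951) stood at 1251, 1083 and 1678 FPKM in bFGF/EGF, 2133, 2716 and 2129 in bFGF/BMP4, and 2344, 2967 and 2199 in BMP4. No day 6 library overlapped the control, and the fold changes were 1.76 (adjusted p = 0.029) and 1.89 (adjusted p = 0.015). For mt-Nd1 (chrM:2751-3707), the first mRNA after the rRNAs, the values were 3034, 2403 and 3474 FPKM in bFGF/EGF, 3851, 4717 and 3726 in bFGF/BMP4, and 3416, 4708 and 3296 in BMP4. The bFGF/BMP4 libraries lay above the control and the BMP4 libraries overlapped it, and neither comparison passed the test (log2 0.47 with a 95% interval of -0.22 to 1.16, and 0.36 with an interval of -0.33 to 1.04). The call of mt-Nd2 was lost without bFGF/EGF replicate 1 (adjusted p = 0.11 and 0.065) and without bFGF/EGF replicate 2 (0.098 and 0.055), and in bFGF/BMP4-treated NSCs without each of their replicates (0.057 to 0.11). It was also lost with no filter on low values (0.15 and 0.096) and with only the groups compared in the fit (0.1 and 0.099).

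mt-Cytb (chrM:14145-15288), which encodes cytochrome b of complex III, stood at 3392, 2283 and 3829 FPKM in bFGF/EGF, 5875, 6640 and 5108 in bFGF/BMP4, and 5624, 6899 and 5243 in BMP4. The day 6 groups lay above all control libraries, by 1.89-fold and 1.9-fold, at adjusted p = 0.049 and 0.042. These calls were close to the threshold, and 12 of the 20 alternatives lost the first and 13 lost the second. Leaving out any library other than bFGF/EGF replicate 3 or BMP4 replicate 2 lost the first (adjusted p = 0.054 to 0.17), and leaving out any library other than bFGF/EGF replicate 3 lost the second (0.065 to 0.15). mt-Co1 (chrM:5328-6872), the catalytic subunit of complex IV, stood at 5875, 4594 and 6053 FPKM in bFGF/EGF, 8428, 9487 and 9225 in bFGF/BMP4, and 8674, 9808 and 9064 in BMP4. Its day 6 libraries did not overlap the control either, yet the rise of 1.65-fold and 1.68-fold did not pass (adjusted p = 0.13 and 0.11, SE 0.36). limma-voom on the rebuilt fragment numbers gave adjusted p = 0.00022 and 0.00013 for mt-Co1, and limma without a trend of the variance with the level gave 0.0045 and 0.0032. The counts of 8 above moved with the tool and the filter, since limma-voom called 12 and 10 of the 13 mRNAs higher and 5 and 5 were called with no filter on low values. Without a trend limma called 8 and 8, with mt-Co1 in place of mt-Atp8 in the first comparison and of mt-Co3 in the second. With the replicate number as a block it also called 8 and 8, with mt-Co2 (adjusted p = 0.022 and 0.042) in place of mt-Cytb (0.066 and 0.058) in both.

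**Figure D2:**
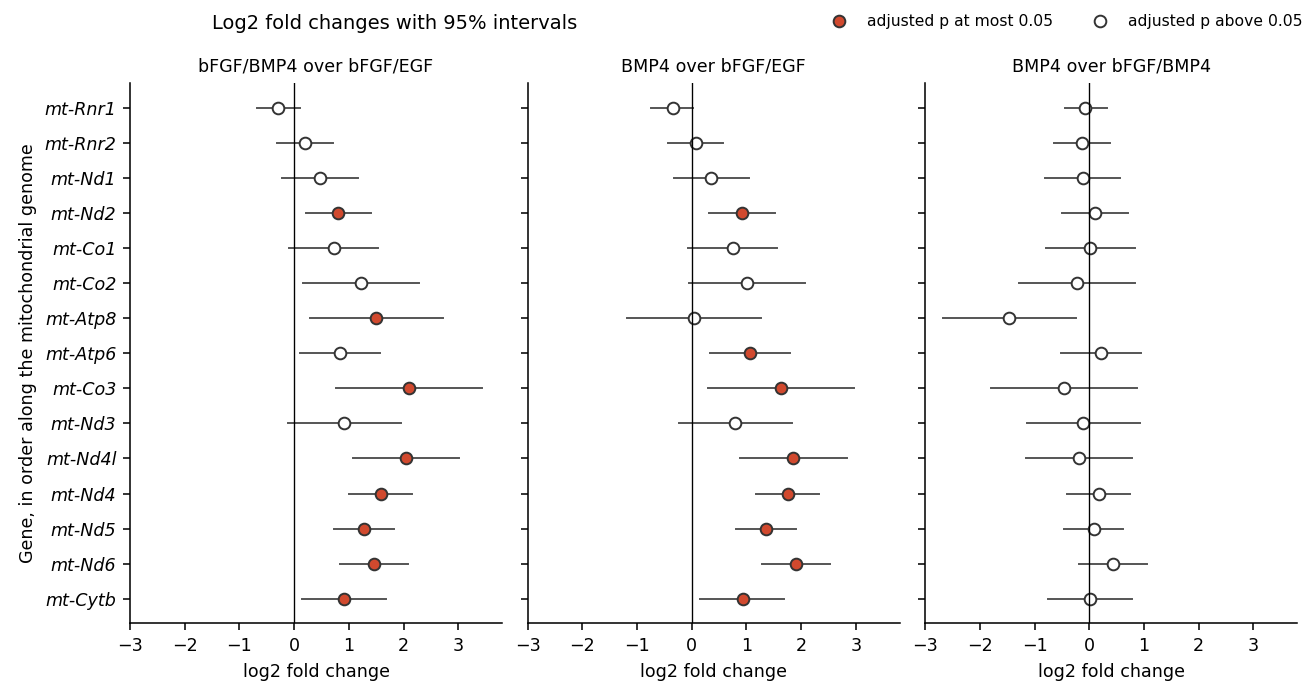
Log2 fold changes (points) with 95% intervals (lines) of the 2 rRNAs and 13 mRNAs in the 3 comparisons, in order along the mitochondrial genome; filled points passed the test at 0.05 after adjustment. In both comparisons with bFGF/EGF 8 mRNAs are filled, all above 0, and in BMP4 over bFGF/BMP4 there are 0.

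The 6 mRNAs inside the chr1 copy were low and more variable. mt-Nd4l, a small complex I subunit whose end overlaps mt-Nd4 by 7 bases, stood at 15.2, 10.4 and 22.3 FPKM in bFGF/EGF, 65.8, 65 and 59.3 in bFGF/BMP4, and 42.7, 124 and 32.5 in BMP4. It did not overlap the control and rose by 4.13-fold (adjusted p = 0.0032) and 3.63-fold (adjusted p = 0.0047). mt-Co3, a complex IV subunit, stood at 26.9, 18.2 and 27.6 FPKM in bFGF/EGF, 69.1, 302 and 51.5 in bFGF/BMP4, and 46.7, 132 and 66.7 in BMP4, with replicate 2 the highest of both day 6 groups. Its log2 fold changes were 2.1 ± 0.6 (adjusted p = 0.015) and 1.64 ± 0.6 (adjusted p = 0.04). The first was 1.32 without bFGF/BMP4 replicate 2, its highest library, and 2.59 without bFGF/BMP4 replicate 3. Without bFGF/EGF replicate 2 neither passed (adjusted p = 0.055 and 0.12), and the second was also lost without bFGF/EGF replicate 1 (0.072) or 3 (0.067) and without BMP4 replicate 2 (0.14) or 3 (0.075), with no filter on low values (0.071), on the TPM scale (0.056) and without a trend (0.068). For mt-Co2 the values were 49.6, 83.7 and 74.7 FPKM in bFGF/EGF, 192, 204 and 103 in bFGF/BMP4, and 79.1, 315 and 103 in BMP4, and neither comparison passed (adjusted p = 0.055 and 0.097). Both passed with limma-voom (adjusted p = 0.013 and 0.034), with the replicate block (0.022 and 0.042) and with nuclear copies added (0.014 and 0.036). The first also passed with a mean of at least 1 FPKM (0.035), scaled to nuclear genes (0.036), with only the groups compared (0.026) and without bFGF/BMP4 replicate 3 (adjusted p = 0.036), BMP4 replicate 1 (0.04) or BMP4 replicate 2 (0.0074), and the second without BMP4 replicate 1 (0.035).

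Both complex V genes, which encode subunits of the membrane part of ATP synthase, share 43 bases. mt-Atp6 stood at 55.1, 64.9 and 59.7 FPKM in bFGF/EGF, 119, 93.8 and 110 in bFGF/BMP4, and 145, 201 and 66.6 in BMP4, higher by 2.09-fold in BMP4-treated NSCs (adjusted p = 0.019) and by 1.79-fold without passing in bFGF/BMP4-treated NSCs (adjusted p = 0.056). The latter passed without BMP4 replicate 2 (adjusted p = 0.022) or 3 (0.0026) and under 6 alternatives with all libraries (0.0026 to 0.049). The call in BMP4-treated NSCs was lost without BMP4 replicate 1 (adjusted p = 0.064), without BMP4 replicate 2 (0.06), without bFGF/EGF replicate 1 (0.058) and with only the groups compared (0.065). mt-Atp8 stood at 2.31, 3.72 and 1.66 FPKM in bFGF/EGF, 17.1, 7.67 and 2.67 in bFGF/BMP4, and 2.72, 2.42 and 2.38 in BMP4. Its bFGF/BMP4 libraries overlapped the control, the call there (adjusted p = 0.044) was lost when any library other than bFGF/EGF replicate 2 or bFGF/BMP4 replicate 3 was left out, and a stretch shared with mt-Atp6 makes its level uncertain. Its log2 fold change there was 1.5, but 0.87 without bFGF/BMP4 replicate 1 and 2.19 without bFGF/BMP4 replicate 3. mt-Nd3, of complex I, lay between 2.36 and 12.6 FPKM in the 9 libraries and did not pass in either comparison (adjusted p = 0.13 and 0.17). Leaving out bFGF/EGF replicate 1, its highest control library at 10.8 FPKM, gave adjusted p = 0.0071 and 0.0087.

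The annotated genes of the nuclear copies showed signal of the same order as these 6 mRNAs. On chr1, Gm29216 (matching mt-Co1), Gm28661 (mt-Co2), Atp6-ps (mt-Atp6), Gm28437 (mt-Co3), Gm28438 (mt-Nd3), Gm10222 (mt-Nd4l) and Gm28439 (mt-Nd4) lay between 7.92 and 162 FPKM over the libraries. Gm28438 had a mean of 71.9 ± 13.9 FPKM in bFGF/EGF-treated NSCs, above the 5.86 ± 4.41 FPKM of mt-Nd3, which it matches. Of these 7 genes, 4 were higher in bFGF/BMP4- and 5 in BMP4-treated NSCs and 0 were lower, beside 25% and 29.6% of all genes higher, and the median log2 fold changes were 1.15 and 1.08. Gm28439 rose from 8.54 ± 0.996 to 27 ± 6.28 and 26.4 ± 5.49 FPKM (adjusted p = 1e-04 and 8.3e-05), and Gm28661 from 32.9 ± 11.7 to 93.8 ± 3.35 and 74.8 ± 26.9 FPKM (adjusted p = 9e-04 and 0.004). A second copy, chr2:22477300-22480546, matched chrM:4441-7699 at 97.362% identity, and of its genes Gm13340 (matching mt-Co1) had group means of 2.81 ± 0.242, 5.97 ± 1.07 and 5.15 ± 1.11 FPKM and Gm13341 (mt-Co2) 0.962 ± 0.923, 1.82 ± 0.771 and 1.31 ± 0.268 FPKM. How fragments with equal matches on chrM and chr1 were counted is not given, and the part of the copy in the low level of the 6 mRNAs was not tested. If the fragments of mt-Co1 and mt-Nd4 are assigned only to the 1062 and 502 bases of each gene outside the copy, which is an upper limit, mt-Nd4 would stand at 1871 ± 504, 5494 ± 488 and 6210 ± 900 FPKM in the 3 groups and mt-Co1 at 8012 ± 1158, 13161 ± 803 and 13358 ± 838 FPKM. Added to the mitochondrial values, the copies raised the share of mRNA fragments only to 1.99 ± 0.44%, 3.29 ± 0.3% and 3.42 ± 0.25%.

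**Figure D3:**
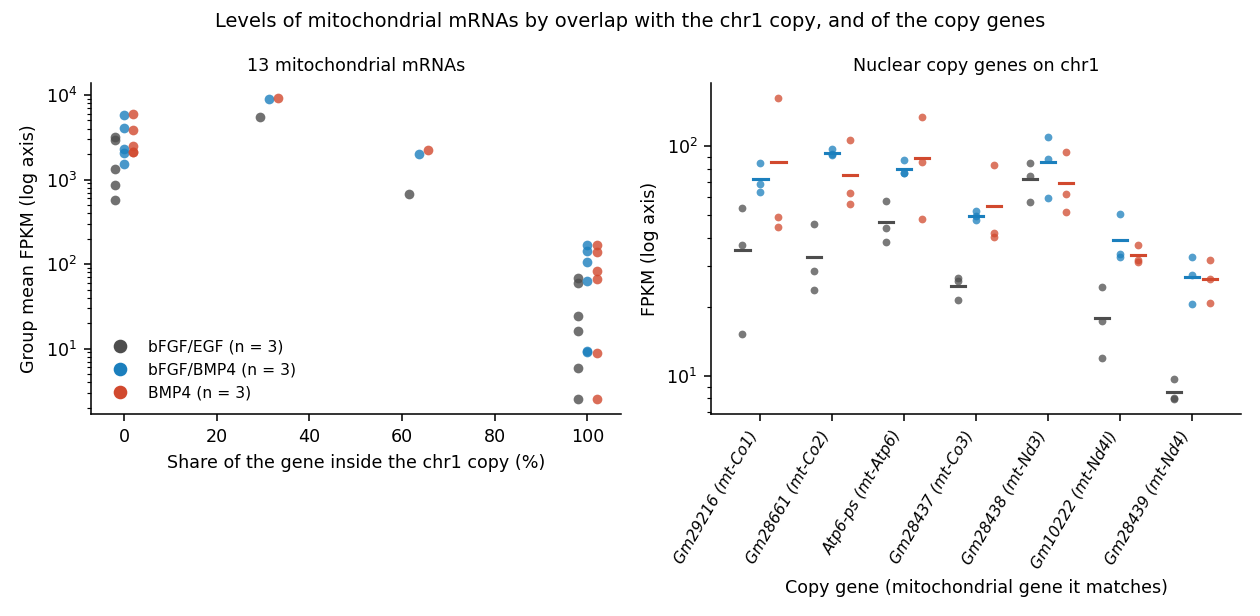
Left, the group mean of each of the 13 mRNAs (FPKM, log axis) against the share of the gene inside the chr1 copy, with groups shifted sideways so that they can be told apart; right, FPKM (log axis) of the 7 chr1 copy genes in each library, with bars at group means. The 6 mRNAs wholly inside the copy have group means of 2.51 to 166 FPKM and the 5 outside it 571 to 5922 FPKM.

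Within each library, the mRNAs far along the heavy-strand transcript were set against those near its start. The mean log2 FPKM of mt-Nd4, mt-Nd5 and mt-Cytb minus that of mt-Nd1 and mt-Nd2 was -0.64, -0.83 and -0.67 in the bFGF/EGF libraries. It was -0.05, -0.15 and -0.09 in the bFGF/BMP4 libraries and 0.11, -0.2 and 0.08 in the BMP4 libraries. All 6 day 6 libraries thus lay above all 3 control libraries, and the 2 day 6 groups overlapped. Relative to mt-Nd1, which cancels the scaling of the library, mt-Nd4 moved from a log2 ratio of -2.14 ± 0.14 to -1.03 ± 0.06 and -0.74 ± 0.09, and mt-Nd6 from -2.4 ± 0.14 to -1.42 ± 0.03 and -0.86 ± 0.09. That of mt-Nd5 moved from -1.81 ± 0.09 to -1.01 ± 0.05 and -0.81 ± 0.43. For mt-Cytb, the last mRNA of the heavy-strand transcript, the ratio moved from 0.08 ± 0.13 to 0.52 ± 0.08 and 0.65 ± 0.09, close to the step of mt-Nd2, which lies near the start and moved from -1.16 ± 0.11 to -0.82 ± 0.03 and -0.6 ± 0.06. The ratio of mt-Co1 to mt-Nd1 moved from 0.9 ± 0.08 to 1.15 ± 0.15 and 1.29 ± 0.21, and that of mt-Rnr2 to mt-Nd1 lay at -4.17 ± 0.22, -4.43 ± 0.13 and -4.45 ± 0.09. Over the 12 heavy-strand mRNAs, Spearman's rho between the place of a gene and its log2 fold change was 0.6 in both comparisons, and over the 6 not wholly inside the copy it was 0.71. These genes share libraries and a transcript and are no replicates, so the values are given as a description.

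The rRNAs of the mitochondrial ribosome did not differ. mt-Rnr1 (12S rRNA, chrM:70-1024) stood at 153, 111 and 144 FPKM in bFGF/EGF, 109, 102 and 121 in bFGF/BMP4, and 89.1, 127 and 103 in BMP4. Its groups overlapped, with a log2 fold change of -0.29 (95% interval -0.67 to 0.1, adjusted p = 0.2) in bFGF/BMP4- and -0.35 (interval -0.74 to 0.03, adjusted p = 0.11) in BMP4-treated NSCs. Without bFGF/EGF replicate 2 or BMP4 replicate 2, mt-Rnr1 was lower in BMP4- than in bFGF/EGF-treated NSCs (adjusted p = 0.033 and 0.031). mt-Rnr2 (16S rRNA, chrM:1094-2675) stood at 178, 113 and 218 FPKM in bFGF/EGF, 169, 208 and 191 in bFGF/BMP4, and 162, 201 and 156 in BMP4. It too overlapped in all groups, with log2 fold changes of 0.2 (interval -0.31 to 0.71) and 0.07 (interval -0.44 to 0.58). Both rRNAs precede mt-Nd1 on the same transcript. At an unadjusted p under 0.05, 0 of 2 differed in each of the 3 comparisons, and the share of all genes at that threshold was not computed.

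The tRNA genes are 59 to 75 bases long, shorter than the cDNA fragments of 370 to 420 bp that the labels give, so their values may come from uncut precursors or from short fragments, and the table cannot separate these. A single fragment in 1 library was enough for such a gene to pass the filter on low values, which removed only those at 0, and 19 of the 22 passed it. Of the 22 tRNAs, 9 were detected in all groups, 5 in some groups and 8 in none. The 8 were mt-Tf, mt-Td and mt-Tg, which had 0 fragments in all 9 libraries, and mt-Tv, mt-Ts1, mt-Tk, mt-Tr and mt-Tt, for which no fold is given.

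On the light-strand transcript, the 5 tRNAs detected in all groups were all higher in both day 6 groups. Their medians were 1.09 and 1.73 on the log2 scale, and 25% and 29.6% of all genes tested were higher. Strand here is that of the annotated gene, since whether fragments were counted by strand is not given. If they were not, fragments over these tRNA genes may come from either transcript. mt-Te stood at 11.9, 3.67 and 25.4 FPKM in bFGF/EGF (14, 4 and 31 fragments), 60.4, 122 and 148 in bFGF/BMP4, and 297, 246 and 228 in BMP4. The 3 groups did not overlap, and the rise of 9.81-fold in bFGF/BMP4- (log2 3.29 ± 0.58, adjusted p = 0.0011) and 24.4-fold in BMP4-treated NSCs (log2 4.61 ± 0.58, adjusted p = 9.3e-05) was the largest among the 9 tRNAs detected in all groups. Its size rests on the control libraries, with log2 fold changes of 2.55 and 3.87 without bFGF/EGF replicate 2 and 3.94 and 5.25 without bFGF/EGF replicate 3. mt-Tp, the most abundant tRNA gene, stood at 212, 309 and 281 FPKM in bFGF/EGF, 520, 564 and 600 in bFGF/BMP4, and 668, 699 and 585 in BMP4. It was higher by 2.12-fold (adjusted p = 7e-04) and 2.46-fold (adjusted p = 0.00017), with no overlap. mt-Tn stood at 9.11, 15.1 and 36.7 FPKM in bFGF/EGF, 59.6, 65.2 and 87.1 in bFGF/BMP4, and 53.8, 108 and 133 in BMP4, which made it 4.04-fold (adjusted p = 0.0054) and 5.32-fold (adjusted p = 0.0016) higher.

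mt-Tc stood at 60.6, 33.5 and 68.6 FPKM in bFGF/EGF, 86.8, 94.8 and 138 in bFGF/BMP4, and 196, 150 and 175 in BMP4. The libraries formed 3 groups with no overlap, at 2.01-fold (adjusted p = 0.011) and 3.32-fold (adjusted p = 0.00037) over the control. mt-Ty stood at 18.4, 13.2 and 16 FPKM in bFGF/EGF, 26, 23.3 and 40.6 in bFGF/BMP4, and 34.9, 40.5 and 51.6 in BMP4, and was 1.84-fold (adjusted p = 0.0086) and 2.64-fold (adjusted p = 0.00045) higher. mt-Tn, mt-Tc and mt-Ty lie beside each other and wholly inside the stretch copied on chr2, while mt-Te and mt-Tp lie in neither near-identical copy. Of the 5, 4 (mt-Tn, mt-Tc, mt-Te and mt-Tp) passed in both comparisons under all 19 alternatives, and mt-Ty missed the threshold only with limma-voom in bFGF/BMP4-treated NSCs (adjusted p = 0.069). How many of all genes passed under every alternative was not computed, so the count is only a description.

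On the heavy-strand transcript, with the same limit of strand, the 4 tRNAs detected in all groups had medians of -0.02 and -0.3 on the log2 scale. The fit called 0 of them higher and 1 lower in each comparison. Of all genes tested, 25% and 29.6% were higher and 23.6% and 25.3% lower. The heavy-strand tRNAs mt-Tw, mt-Tm and mt-Ti were not detected in the control, so they are outside this count and are described below. The serine tRNA mt-Ts2 stood at 64.8, 41.8 and 53.7 FPKM in bFGF/EGF, 32.7, 29.8 and 38 in bFGF/BMP4, and 24, 38.7 and 26.7 in BMP4. It was lower than the control in all day 6 libraries, with log2 fold changes of -0.66 ± 0.21 (adjusted p = 0.025) and -0.85 ± 0.21 (adjusted p = 0.006). The call in bFGF/BMP4-treated NSCs was lost in 5 of 19 alternatives, among them limma-voom (adjusted p = 0.096) and without bFGF/EGF replicate 1 (0.097), bFGF/EGF replicate 3 (0.06), bFGF/BMP4 replicate 1 (0.063) and bFGF/BMP4 replicate 2 (0.086). The leucine tRNAs mt-Tl1 and mt-Tl2 and the histidine tRNA mt-Th overlapped between all groups and did not pass, at group means of 56 to 69.6, 75.4 to 107 and 27.7 to 33.3 FPKM.

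**Figure D4:**
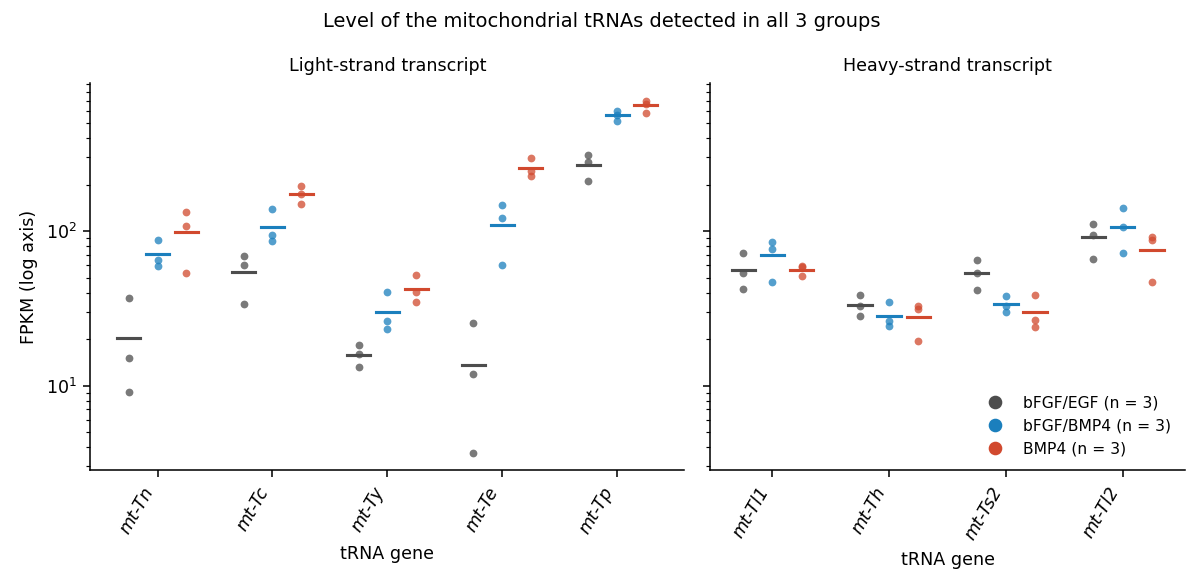
FPKM (log axis) of the 9 tRNAs detected in all groups, in each library, for the light-strand transcript (left) and the heavy-strand transcript (right); points are libraries and bars group means. The 5 light-strand tRNAs rise from bFGF/EGF to both day 6 groups, and of the 4 heavy-strand tRNAs mt-Ts2 falls and the others overlap. tRNAs not detected in the control, such as mt-Tw and mt-Tm of the heavy-strand transcript, are not shown. Genes are placed by their annotated strand, and whether fragments were counted by strand is not given.

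Some tRNAs came above the limit of detection only at day 6. The tryptophan tRNA mt-Tw, of the heavy-strand transcript, had 1 fragment in each bFGF/EGF library, 13, 8 and 19 in the bFGF/BMP4 libraries and 30, 21 and 11 in the BMP4 libraries. From the summed fragments, of which the control had only 3 and so lay under the limit of detection, the ratio to the control was 14.6 (95% counting interval 4.65 to 73.8) in bFGF/BMP4- and 21.3 (interval 6.97 to 106) in BMP4-treated NSCs. The methionine tRNA mt-Tm had 0 fragments in all bFGF/EGF libraries, 2, 1 and 3 in the bFGF/BMP4 libraries and 4, 12 and 5 in the BMP4 libraries. BMP4-treated NSCs were at least 2.41-fold higher than the control, taken at 3 fragments per library, and bFGF/BMP4-treated NSCs lay under the limit of detection, with 6 summed fragments against 21. The alanine tRNA mt-Ta had 0, 1 and 0 fragments in bFGF/EGF, 3, 1 and 6 in bFGF/BMP4 and 3, 4 and 1 in BMP4. The isoleucine tRNA mt-Ti reached 4 fragments in bFGF/BMP4 and 6 in BMP4, and the glutamine tRNA mt-Tq 4 in BMP4, values too low to compare.

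BMP4-treated NSCs were compared with bFGF/BMP4-treated NSCs to ask what bFGF added in the presence of BMP4 at the same day. Of the 13 mRNAs, limma called 0, beside 21.1% of all genes tested (12.2% higher and 8.89% lower), and 1 had an unadjusted p under 0.05 (mt-Atp8, log2 -1.46 ± 0.54). limma-voom also called 0. The libraries of the 2 groups overlapped for every mRNA, which is only a description, as the share over all genes was not computed. For the abundant mRNAs, 95% intervals of the log2 fold change ran from -0.41 to 0.75 for mt-Nd4 and from -0.47 to 0.62 for mt-Nd5. They ran from -0.18 to 1.06 for mt-Nd6, from -0.79 to 0.84 for mt-Co1 and from -0.76 to 0.78 for mt-Cytb. These intervals hold changes in both directions, so the groups are not shown to be alike. Without bFGF/BMP4 replicate 3, mt-Atp8 was lower in BMP4-treated NSCs (adjusted p = 0.0051), and without BMP4 replicate 3, mt-Atp6 was higher (adjusted p = 0.031). Of the 9 tRNAs detected in all groups 0 passed and 3 had an unadjusted p under 0.05. The share of all genes with an unadjusted p under 0.05 was not computed, so such counts, also for the mRNAs, are only a description. mt-Te and mt-Tc did not overlap between the groups and were higher in BMP4-treated NSCs by 2.48-fold and 1.65-fold (adjusted p = 0.15 and 0.089), and limma-voom called both (adjusted p = 0.0039 and 0.044). Without bFGF/EGF replicate 2, mt-Te and mt-Tc passed (adjusted p = 0.033 and 0.025), and without bFGF/BMP4 replicate 3, mt-Ty passed (0.03).

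Nuclear genes that act on the mitochondrial genome were then examined in lists of their roles. Their counts stand beside 25% of all genes higher and 23.6% lower in bFGF/BMP4-treated NSCs and 29.6% higher and 25.3% lower in BMP4-treated NSCs. Of 9 genes of mitochondrial transcription, 3 were higher and 1 lower in bFGF/BMP4-treated NSCs and 5 were higher and 1 lower in BMP4-treated NSCs. Polrmt, the mitochondrial RNA polymerase, stood at 7 ± 1.01, 9.37 ± 1.04 and 7.54 ± 0.508 FPKM in the 3 groups and passed in bFGF/BMP4-treated NSCs (adjusted p = 0.031) but not in BMP4-treated NSCs (adjusted p = 0.52); the direct difference of the day 6 groups did not pass (adjusted p = 0.16). Mterf2, of the family named for termination of this transcription, rose from 2.48 ± 0.528 to 5.33 ± 0.706 and 6.04 ± 0.387 FPKM (log2 1.09 and 1.27). Tfam, which packs mitochondrial DNA and starts its transcription, fell from 12.3 ± 1.04 to 8.5 ± 0.742 and 8.89 ± 1.44 FPKM (adjusted p = 0.011 and 0.017). Mterf1b rose in BMP4-treated NSCs, at 0.579 ± 0.0556, 0.878 ± 0.206 and 1.63 ± 0.163 FPKM. Of 8 genes of mitochondrial DNA maintenance, 1 was higher (Polg2, 0.757 ± 0.0614 against 1.27 ± 0.176 FPKM) and 1 lower in bFGF/BMP4-treated NSCs, and 0 were higher and 2 lower in BMP4-treated NSCs. Top1mt, a topoisomerase, fell in both, from 2.77 ± 0.196 to 1.77 ± 0.187 and 1.99 ± 0.118 FPKM (adjusted p = 0.008 and 0.031). Polg, the catalytic subunit of the mitochondrial DNA polymerase, stood at 20.4 ± 1.19 and 16.7 ± 1.55 FPKM in the first groups and 6.54 ± 1.05 FPKM in BMP4-treated NSCs, lower than in either other group (log2 -1.64 ± 0.14 and -1.35 ± 0.14, adjusted p = 5.8e-06 and 9.6e-05).

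For the genes that cut and mature the transcripts, both directions were seen. Of 13 RNA processing genes, 2 were higher and 5 lower in each comparison with the control, beside 23.6% and 25.3% of all genes lower. Elac2, which cuts the 3′ end of tRNAs, fell from 21 ± 4.36 to 11.2 ± 1.54 and 9.08 ± 0.551 FPKM (adjusted p = 0.0011 and 0.00015), and Tbrg4, an RNA-binding protein of the FASTK family, from 27.9 ± 2.72 to 12.5 ± 0.263 and 10.8 ± 0.67 FPKM. Grsf1, an RNA-binding protein of mitochondrial RNA granules, was higher in BMP4- than in bFGF/BMP4-treated NSCs, at 49.8 ± 6.03 against 28 ± 2.14 FPKM (adjusted p = 0.00079). Of 8 genes of RNA stability and decay, 1 was higher and 2 lower, and then 0 and 2, with Mtpap, the mitochondrial poly(A) polymerase, at 4.53 ± 0.634, 3.22 ± 0.264 and 3.35 ± 0.276 FPKM, and Pde12, which removes poly(A) tails in mitochondria, at 5.8 ± 0.501, 3.55 ± 0.4 and 4.05 ± 0.368 FPKM, both lower in both comparisons. Rexo2, an oligoribonuclease, was higher in bFGF/BMP4-treated NSCs (24.9 ± 1.79 against 17.4 ± 1.3 FPKM, adjusted p = 0.014). Lrpprc, which keeps mitochondrial mRNAs stable, did not pass (11.8 ± 1.59, 9.86 ± 1.12 and 10.6 ± 0.519 FPKM).

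Of 17 genes that modify tRNA or rRNA, 2 were higher and 3 lower in bFGF/BMP4-treated NSCs and 2 higher and 4 lower in BMP4-treated NSCs, where 25% and 23.6% of all genes, and then 29.6% and 25.3%, were higher and lower. Pus1, a pseudouridine synthase, fell from 13.7 ± 0.58 to 5.43 ± 0.45 and 4.58 ± 0.534 FPKM (log2 -1.32 ± 0.13 and -1.57 ± 0.13). Trmt5, a tRNA methyltransferase, fell from 5.28 ± 0.658 to 2.15 ± 0.234 and 2.66 ± 0.347 FPKM. Gtpbp3 and Mrm2, which modify a tRNA and the 16S rRNA, were lower in BMP4- than in bFGF/BMP4-treated NSCs, at 4.03 ± 0.89 against 6.37 ± 0.898 and 6.86 ± 0.566 against 10.1 ± 1.01 FPKM (adjusted p = 0.026 and 0.015).

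Of 6 regulators of mitochondrial biogenesis, 2 were higher and 3 lower in each comparison with the control, beside 48.6% and 54.9% of all genes differing in either direction. Ppargc1a, the coactivator PGC-1α, rose from 5.29 ± 1.29 to 31.1 ± 5.6 and 29.6 ± 4.34 FPKM (log2 2.55 ± 0.2 and 2.48 ± 0.2, adjusted p = 6.3e-06 and 4.9e-06). Its relative Pprc1 fell from 14.6 ± 1.4 to 5.75 ± 1.25 and 4.74 ± 0.982 FPKM, and Nrf1, a factor of nuclear genes for mitochondria, from 4.28 ± 0.678 to 3.16 ± 0.179 and 2.96 ± 0.0887 FPKM. Esrra, a nuclear receptor that works with PGC-1α, rose from 15.8 ± 1.07 to 26.2 ± 4.98 and 22.4 ± 2.55 FPKM. Of 7 genes taken as measures of organelle mass, 1 was higher and 3 lower in each, to be read against the same shares. Citrate synthase, Cs, rose from 118 ± 15.7 to 165 ± 9.22 and 152 ± 12.3 FPKM (adjusted p = 0.012 and 0.04), and the import genes Tomm40 and Timm23 fell, from 35.6 ± 5.11 to 15.3 ± 1.03 and 13.7 ± 1.64 and from 54.7 ± 16.9 to 29 ± 9.26 and 21.7 ± 3.94 FPKM.

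The nuclear partners of the mitochondrial subunits were then counted. Of 76 nuclear subunit genes of complexes I, III, IV and V, 16 were higher and 1 lower in bFGF/BMP4-treated NSCs and 25 higher and 2 lower in BMP4-treated NSCs, to be read against 25% and 29.6% of all genes higher. Their median log2 fold changes were 0.29 and 0.41, against 1.23 and 1.01 for the 13 mitochondrial mRNAs. In complex I, 7 of 37 were higher and 0 lower, and then 10 and 1. Ndufs1, the largest subunit of its electron input arm, rose from 17.2 ± 0.779 to 38.9 ± 2.52 and 40.6 ± 6.27 FPKM (adjusted p = 3.9e-05 and 2e-05), and Ndufa1 and Ndufa3 from 61.4 ± 4.63 to 120 ± 14.6 and 132 ± 47.9 and from 40.1 ± 6.83 to 77 ± 12.2 and 85.1 ± 25.7 FPKM. In complex III, 4 and 6 of 9 were higher, among them Uqcr11 (105 ± 24.5, 243 ± 75.2 and 242 ± 58.7 FPKM) and Uqcr10 (196 ± 47.4, 358 ± 21.3 and 372 ± 122 FPKM).

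In complex IV, 5 and 8 of 13 nuclear subunit genes were higher and 0 lower. Cox7a1 rose from 0.819 ± 0.111 to 2.64 ± 1.16 and 5.01 ± 0.86 FPKM and Cox6c from 43.6 ± 5.69 to 74.1 ± 1.78 and 90.3 ± 25.4 FPKM. Cox4i2, an alternative form of subunit 4, stood at 0.33 ± 0.168 and 0.606 ± 0.335 FPKM and at 4.6 ± 1.74 FPKM in BMP4-treated NSCs, and was higher there than in bFGF/BMP4-treated NSCs (log2 2.77 ± 0.42, adjusted p = 0.0011). In complex V, 0 of 17 were higher and 1 lower in bFGF/BMP4-treated NSCs, and 1 higher and 1 lower in BMP4-treated NSCs. Atp5mc2 fell from 139 ± 20.5 to 98.4 ± 6.15 and 95.6 ± 18.9 FPKM, and Atp5pf was higher in BMP4-treated NSCs (62.7 ± 13.7 against 43.1 ± 2.94 FPKM). Complex II, whose 4 subunits are all nuclear, had 2 higher genes in each comparison: Sdha rose from 92.8 ± 3.59 to 176 ± 4.41 and 208 ± 15.1 FPKM and Sdhc from 61.9 ± 11.5 to 86.5 ± 4.58 and 112 ± 22.7 FPKM. Over all 148 genes of the 12 nuclear lists, 30 were higher and 19 lower in bFGF/BMP4-treated NSCs and 39 higher and 22 lower in BMP4-treated NSCs. As shares of the 148, these counts lay below those over all genes, which were 25% and 23.6% and then 29.6% and 25.3%. Between the day 6 groups, 4 were higher and 3 lower in BMP4-treated NSCs, beside 12.2% and 8.89% of all genes.

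**Figure D5:**
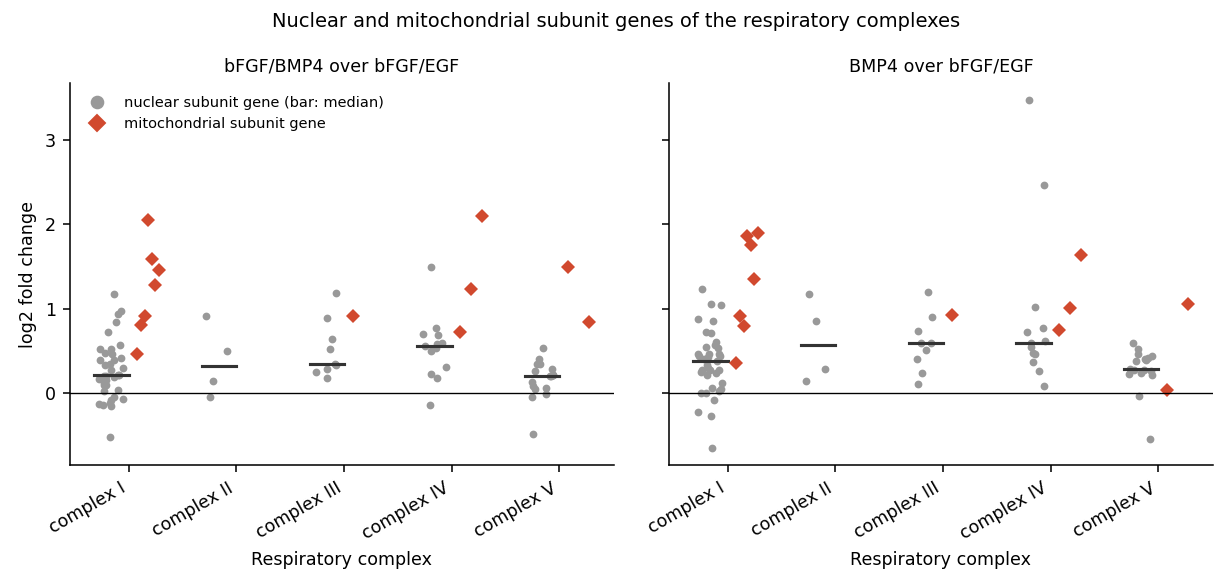
Log2 fold change of nuclear subunit genes (grey points, bar at their median) and of mitochondrial subunit genes (diamonds) of respiratory complexes I to V, for bFGF/BMP4 over bFGF/EGF (left) and BMP4 over bFGF/EGF (right); each point is a gene, and complex II has no mitochondrial subunit. The nuclear medians lie between 0.2 and 0.6, and most mitochondrial genes lie above the median of their complex.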

How the data were processed

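Total RNA of 9 libraries was sequenced by the authors on a NovaSeq platform. The submitters' processing notes name fastp 0.19.7, HISAT2 2.0.5 and featureCounts 1.5.0-p3 with the build mm39. The annotation release, the strand setting, any poly(A) selection or rRNA removal and the treatment of fragments with several matches are not given in the sources used here. The authors deposited FPKM values, in which fragment numbers are divided by the length of the gene and the size of the library. Whole fragment numbers were rebuilt from them for all 30860 genes above 0 (tolerance 0.02), with gene lengths from GENCODE vM39 for the mitochondrial genes. Each library had been divided by a constant that was between 0.918 and 1.072 of its own fragments, a scaling whose method is not stated.

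The main test was limma 3.58.1 (R 4.3.3) with a variance trend on log2(FPKM + 0.1) for 20207 genes (mean FPKM 0.1 or higher), fitted on all 9 libraries and adjusted by Benjamini-Hochberg. A fold change is on this scale and understates low genes. Errors of levels are SD and those of log2 fold changes are SE. The study's own threshold also asked for a fold change of at least 2, and such counts are given beside the main ones. Nuclear copies were found with BLAST 2.17.0 of chrM against GRCm39. The alternatives were a pseudocount of 1, other filters, the TPM scale, median-ratio scaling, scaling to nuclear genes, limma-voom on fragment numbers, the replicate number as a block, nuclear copies added, fits without the group not compared, each library left out, and, chosen after seeing the data, limma without a trend and the scaling constant as denominator. On simulated data for BMP4 over bFGF/BMP4, 20207 genes were used and 200 of them were changed. There limma called 70.4% of those changed 2-fold, 100% of those changed 4-fold and 14 unchanged genes. It called 4 genes when none was changed. Whether these shares hold for the mitochondrial genes was not tested. Their SE in this comparison was uneven, for example 0.36 for mt-Co1 and 0.6 for mt-Co3.

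The rule for the mitochondrial genes used names alone. That rule and the nuclear lists were set with earlier results of these data known. Named were all mRNAs and rRNAs, tRNAs above the filter, nuclear copies with a mean of at least 1 FPKM and, in each nuclear list, the 2 differing genes of largest change per comparison with a mean of at least 1 FPKM. Polrmt, Lrpprc, Nrf1, Esrra and Cs were named after their values were seen.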

Additional observations from a re-analysis of the deposited data

How the results depend on the processing

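Of 13 mRNAs, the number higher than in bFGF/EGF-treated NSCs was 8 in both groups. It was 5 and 5 with no filter on low values, and 5 in BMP4-treated NSCs when only the groups compared were fitted, while the other alternatives with all libraries gave 6 to 12 and 6 to 10. Leaving out 1 library gave 5 to 9 in bFGF/BMP4- and 5 to 7 in BMP4-treated NSCs, with 5 in the first without bFGF/EGF replicate 2 and bFGF/BMP4 replicates 1 and 2, and in the second without bFGF/EGF replicates 1 and 2 and BMP4 replicate 2. Between the day 6 groups 0 mRNAs were called under all alternatives with all libraries, and 0 to 1 with a library left out. Of 2 rRNAs, 1 (mt-Rnr1) was lower in BMP4- than in bFGF/EGF-treated NSCs on the TPM scale, and 0 to 1 with a library left out. Of 9 tRNAs, BMP4- over bFGF/BMP4-treated NSCs gave 0, but 2 with limma-voom, 1 with only the groups compared and 0 to 2 with a library left out. With a 2-fold threshold, the nuclear lists had 11, 21 and 2 genes in the 3 comparisons in place of 49, 61 and 7, and with a library left out the last was 3 to 7. As a share of the FPKM sum, the mRNAs held 5.58, 9.83 and 9.63%, and with the rRNAs added to the genes near the start the log2 ratio of far to near genes was 1.15, 2.11 and 2.25; the cause was not tested.

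The replicate numbers did not pair the libraries, since the deviations of same-numbered libraries correlated at -0.084 to 0.125. With the replicate number as a block the mRNA counts were 8, 8 and 0, with mt-Co2 gained and mt-Cytb lost in both comparisons with the control, and 1 tRNA (mt-Tc) was called between the day 6 groups.

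Some log2 fold changes changed sign. In BMP4- over bFGF/EGF-treated NSCs these were mt-Atp8 (-0.04), mt-Rnr2 (-0.02) and mt-Tl1 (-0.05) on the TPM scale, mt-Tl1 (-0.01) with median-ratio scaling and mt-Nd3 (-0.03) with nuclear copies added. In BMP4- over bFGF/BMP4-treated NSCs, mt-Co1 and mt-Cytb were -0.05 and -0.06 on the TPM scale and -0.05 and -0.07 scaled to nuclear genes. With a library left out, the log2 fold changes that changed sign ranged as follows. For bFGF/BMP4 over bFGF/EGF, mt-Rnr2 -0.07 to 0.41 and mt-Tl2 -0.03 to 0.47. For BMP4 over bFGF/EGF, mt-Atp8 -0.22 to 0.34, mt-Rnr2 -0.2 to 0.28, mt-Tl1 -0.15 to 0.24 and mt-Tl2 -0.51 to 0.01. For BMP4 over bFGF/BMP4, mt-Nd2 -0.03 to 0.22, mt-Co1 -0.03 to 0.06, mt-Co2 -0.82 to 0.18, mt-Atp6 -0.12 to 0.68, mt-Co3 -0.95 to 0.32, mt-Nd3 -0.39 to 0.15, mt-Nd4l -0.76 to 0.2, mt-Cytb -0.11 to 0.1, mt-Rnr1 -0.21 to 0.05 and mt-Th -0.18 to 0.19. Single-gene results kept their direction and their side of the threshold in 695 of the other combinations of gene, comparison and alternative with all libraries, lost a call in 24 and gained one in 31. A tRNA rests on few fragments, so differences under the spread of its libraries were not detectable at this depth.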
